A study of Mus musculus with 6 samples.

Results

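The imprinted growth-control genes were a set of 10 genes named by symbol: *H19*, *Meg3*, *Mest*, *Dlk1*, *Peg3*, *Plagl1*, *Grb10*, *Ndn*, *Zim1* and *Gnas*. They were looked up by symbol among the 28987 genes of the deposited expression table, and 8 of the 10 had a row. *H19* and *Meg3*, a pair of maternally expressed long noncoding RNAs, had no row by symbol or by gene identifier and were not analysed here. The libraries came from EGFP+ cells sorted by flow cytometry from heart ventricles. The mice had undergone TAC (transverse aortic constriction, an operation that loads the left ventricle with pressure) 4 weeks earlier. RNA was amplified before library construction and sequenced, and the series holds 3 control libraries and 3 libraries labelled Hsp47-deleted. *Hsp47*, whose gene symbol is *Serpinh1*, encodes a collagen chaperone of the endoplasmic reticulum.

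Mice of both groups carried a tamoxifen-activated MerCreMer in the *Postn* locus and the *R26eGFP* reporter, and all received tamoxifen by injection (100 mg/kg) and in chow (40 mg/kg), as the labels give it; the doses in the study's methods differ. Mice labelled Hsp47-deleted carried loxP-targeted *Hsp47* alleles in addition. Operations were done at 8 to 10 weeks of age, and the methods give males of the C57BL/6 background. Because *Postn* is switched on in activated fibroblasts (myofibroblasts), the EGFP label and the deletion were limited to cells that had expressed *Postn*, and none of the 6 libraries came from mice without the *Postn*-MerCreMer allele. The labels do not say whether each library came from 1 heart, so p-values measure the spread between these libraries. In these bulk samples, fewer cells of a type and less RNA per cell cannot be told apart.

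Imprinted genes are transcribed mainly from the copy inherited from the mother or mainly from the copy inherited from the father, according to DNA methylation laid down in the germ line. Many of them act on fetal growth and on the supply of nutrients, and several fall silent or become weak after birth. The set holds paternally expressed genes (*Mest*, *Dlk1*, *Peg3*, *Plagl1* and *Ndn*), maternally expressed genes (*Zim1*, and *Grb10* in most tissues) and *Gnas*, a locus with transcripts of either parental origin. The deposited values sum both parental copies, so they hold no measure of imprinting itself.

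Values are log2(value + 1) as deposited, and the linear unit behind them was not named. Whether they are scaled for transcript length is therefore not known, and each gene was compared across libraries rather than with other genes. The exceptions are sums and shares over genes, given for cell type markers and for *Gnas* with an overlapping gene model. Those depend on the unknown scaling. Values of the controls are given in the order replicate 3, replicate 4, replicate 2, and those of the Hsp47-deleted libraries in the order replicate 1, replicate 2, replicate 3. By their labels, the first 2 of the controls so listed came from a sequencing run of their own (the first run), and control replicate 2 was sequenced with the 3 Hsp47-deleted libraries (the second run). By Western blot of sorted EGFP+ cells of these genotypes, the study reported that the Hsp47 protein was efficiently deleted. The RNA level of the target did not separate the libraries. *Serpinh1* stood at 6.28, 6.10 and 7.60 in the controls, against 6.87, 6.67 and 6.66 in the Hsp47-deleted libraries. The levels overlapped, with a log2 fold change (Hsp47-deleted minus control throughout) of 0.072 (SE 0.43, adjusted p = 0.947), and against control replicate 2 alone the difference was -0.87. The study's genotyping recognises a single loxP-targeted exon, whereas the deposited value is for the whole gene. Whether this bears on the *Serpinh1* values was not tested. The fold changes of all 15109 tested genes had a median of 0.35 (0.29 against control replicate 2 alone), and 74.5% of them were above 0. The fold changes of the members are therefore also given from a fit with each library centred on its own median, in which 45.7% of genes lay above 0. Fibroblast markers were present in all libraries, with 9 of 9 detected. They were *Postn*, *Col1a1*, *Col1a2*, *Col3a1*, *Pdgfra*, *Tcf21*, *Dcn*, *Cthrc1* and *Vim*, and not all of them mark activation. Their summed linear level was 8190 to 11319 in the controls and 14219 to 15757 in the Hsp47-deleted libraries, which did not overlap. All 9 had a higher mean in the Hsp47-deleted group, but *Col1a1*, *Col3a1* and *Pdgfra* overlapped. *Dcn* made up most of the sum, at 5090 to 7401 in the controls and 7755 to 8636 in the others. *Postn*, whose locus drives the MerCreMer, stood at a linear 56.9 to 68.5 in the controls and at 1188 to 1451 in the Hsp47-deleted libraries.

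None of the members was called between the groups by limma at an adjusted p under 0.05, the rule that called 0.245% of all tested genes. Of the 8 members with a row, 6 reached a linear mean of at least 1 and were tested. All 6 had a fold change above 0, against 74.5% of all tested genes, and 1 of them, *Gnas*, had an unadjusted p under 0.05, which 15.2% of all tested genes had in either direction and 14.5% in that direction. In *Gnas* and *Grb10* every Hsp47-deleted library lay above every control, a separation that 18.3% of all tested genes showed in that direction. The median fold change of the 6 was 0.52, or 0.17 above the median of all tested genes. In the centred fit 4 of the 6 were above 0, none had an unadjusted p under 0.05 (8.21% of all tested genes did) and the median was 0.11.

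**Figure D1:**
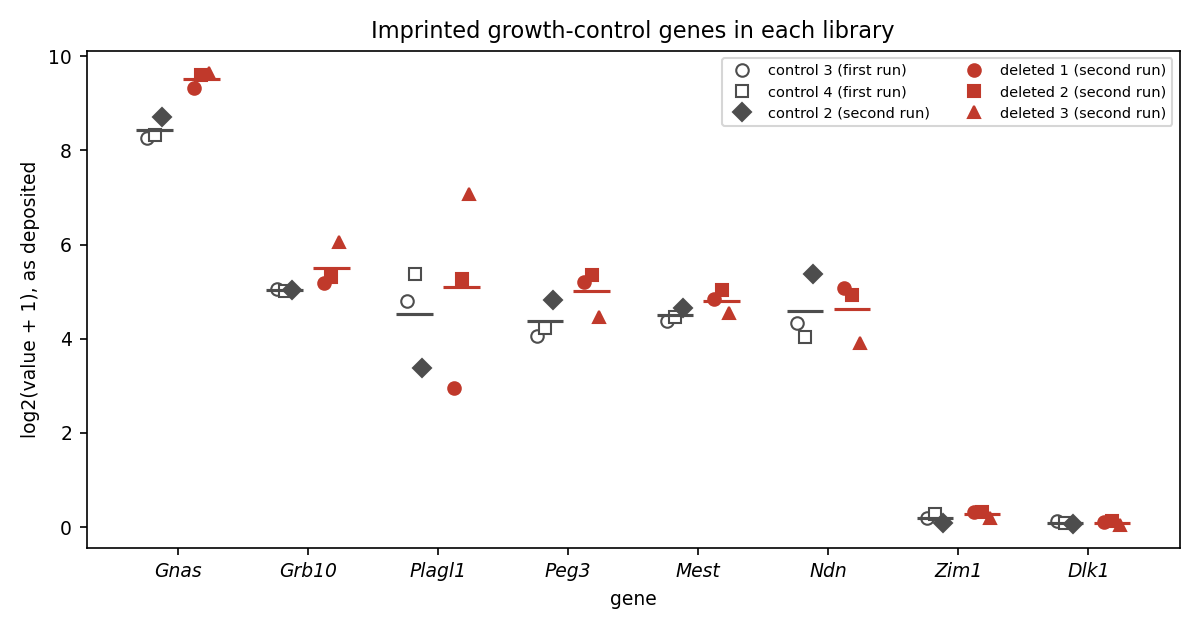
The plot shows log2(value + 1) on the vertical axis for the 8 members with a row, 1 point per library, with short bars at the group means. *Gnas* (8.27 to 8.71 in controls, 9.33 to 9.64 in Hsp47-deleted libraries) and *Grb10* separate by group, *Plagl1* spreads from 2.95 to 7.07, and *Zim1* and *Dlk1* lie near 0.

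*Gnas* encodes the stimulatory G protein alpha subunit, which couples hormone receptors to adenylyl cyclase and so to cyclic AMP, and its locus also gives rise to imprinted transcripts from upstream promoters. It lies on the plus strand at chr2:174284320-174346744 (GRCm38), and GENCODE lists 24 transcripts for it, for which the deposited table gives 1 row. *Gnas* stood at 8.27, 8.34 and 8.71 in the controls, against 9.33, 9.60 and 9.64 in the Hsp47-deleted libraries. The groups did not overlap, and the highest control was the 1 sequenced together with the Hsp47-deleted libraries. The log2 fold change was 1.08 (SE 0.30, 95% interval 0.40 to 1.77), which is 2.12-fold, with an unadjusted limma p of 0.00656 and an adjusted p of 0.263. It was 0.73 above the median of all genes, 0.67 in the centred fit (unadjusted limma p 0.0610) and 0.81 against control replicate 2 alone. An exact permutation test gave a two-sided p of 0.10, the smallest that 3 libraries against 3 allow.

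**Figure D2:**
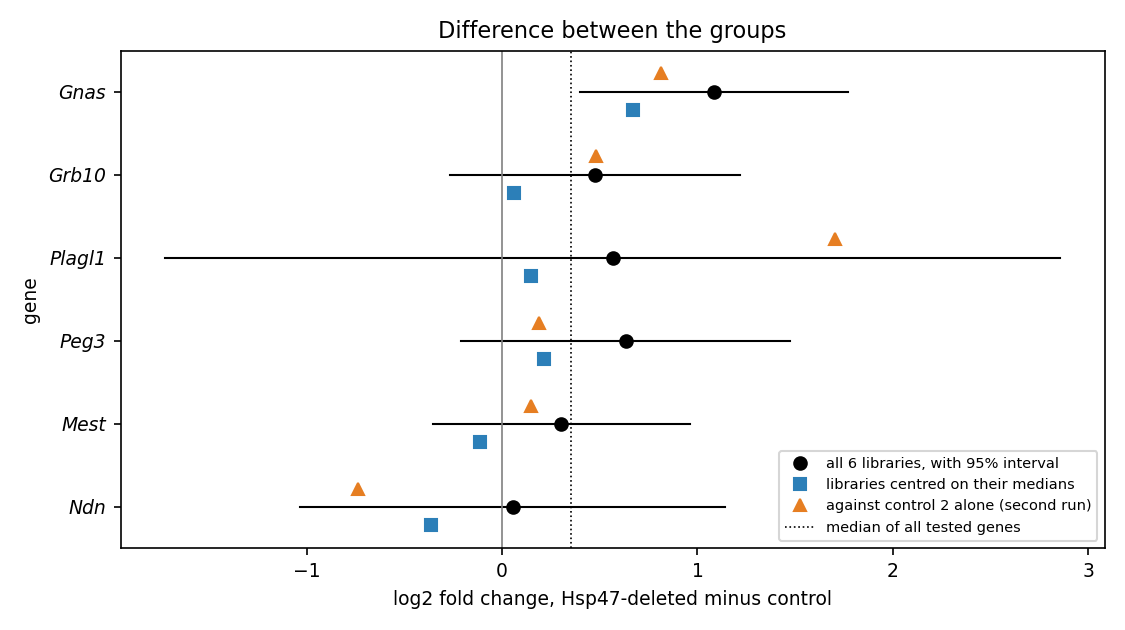
The plot shows the log2 fold change of each tested member on the horizontal axis, as black points with 95% intervals, beside the centred value (squares) and the value against control replicate 2 alone (triangles), with a dotted line at the median of all tested genes. The interval lies above 0 for *Gnas* alone (0.40 to 1.77), and the interval of *Plagl1* (-1.72 to 2.85) is the widest.

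RefSeq lists 4 start sites of *Gnas* in the window table used here (GRCm38.p6, 250 bases before to 50 after each start). The most downstream of them is printed because the gene had the lowest p of the set, and it lies on the plus strand at chr2:174329756-174330055. The window holds 40 CpG dinucleotides at 81.7% G and C, against a median of 7 CpG over all 32851 windows. Capitals would mark the motifs described below, and it holds neither.

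Gnas: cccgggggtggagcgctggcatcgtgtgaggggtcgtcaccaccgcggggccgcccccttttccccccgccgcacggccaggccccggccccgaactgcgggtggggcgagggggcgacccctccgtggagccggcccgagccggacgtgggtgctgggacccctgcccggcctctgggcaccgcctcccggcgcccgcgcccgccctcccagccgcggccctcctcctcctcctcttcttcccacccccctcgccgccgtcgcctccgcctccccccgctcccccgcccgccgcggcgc

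A second gene model shares this locus and bears on the value of *Gnas*. *Gm20721* (ENSMUSG00000090625), annotated as protein coding, lies on the opposite strand at chr2:174330319-174346712, within the span of *Gnas*. Of the 24 *Gnas* transcripts, 5 aligned to it in reverse with an identity of at least 95% and a coverage of at least 80%, so a counter that does not use strand could share reads between them. *Gm20721* had a difference of the opposite sign, at 7.94, 7.92 and 7.58 in the controls, against 7.30, 7.67 and 7.44 in the Hsp47-deleted libraries. These levels overlapped, and the fold change was -0.34 (SE 0.28, adjusted p = 0.561). *Gnas* took 55.7%, 57.3% and 68.7% of the summed linear value of the pair in the controls, against 80.4%, 79.3% and 82.1% in the Hsp47-deleted libraries. The share did not overlap between the groups, and within the controls it was higher in the library of the second run than in both of the first.

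The pair was also summed before the log2, an alternative added after the data were seen. The sum stood at 9.11, 9.14 and 9.25 in the controls, against 9.65, 9.94 and 9.92 in the Hsp47-deleted libraries. The groups still did not overlap, and the fold change was 0.67 (SE 0.29, 95% interval 0.0048 to 1.33, adjusted p = 0.325), smaller than that of *Gnas* alone. With the libraries centred it was 0.25 (SE 0.31, adjusted p = 0.768). How the authors' quantifier divided reads between the models was not tested.

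**Figure D3:**
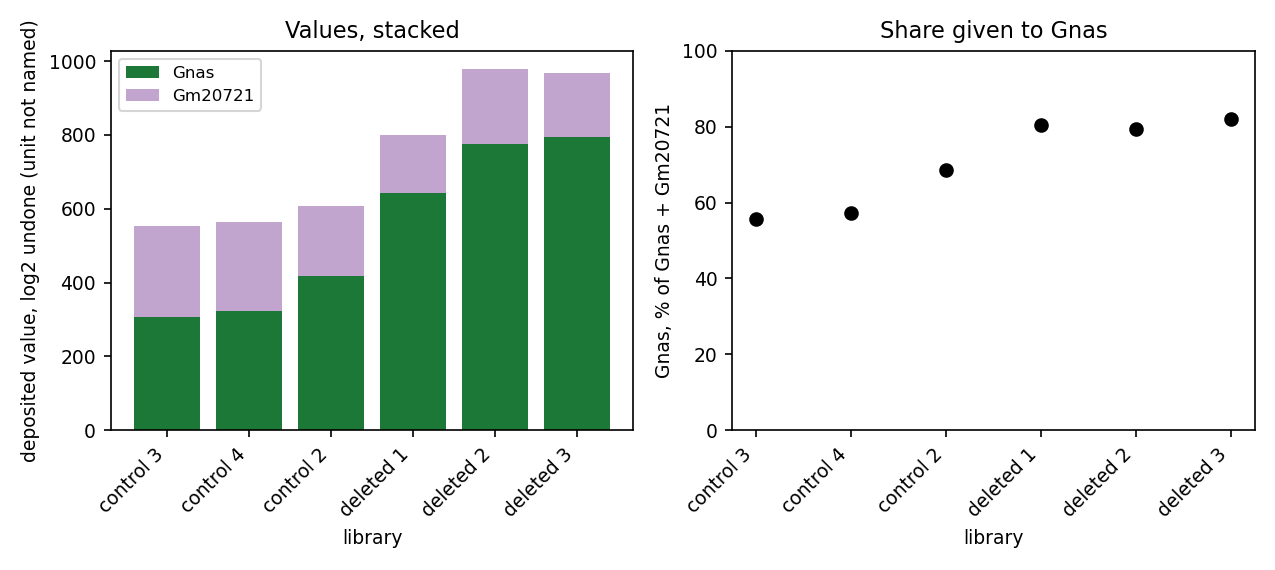
The left panel stacks the linear deposited values of *Gnas* and *Gm20721* (log2 undone, unit not named) in each library, and the right panel shows the share of the pair given to *Gnas* in percent. The highest control sum is 608 and the lowest Hsp47-deleted sum 801, while the highest control share is 68.7% and the lowest Hsp47-deleted share 79.3%.

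*Grb10* encodes an adaptor that binds the insulin and IGF-1 receptors and restrains their signaling, and it lies at chr11:11930508-12038683 on the minus strand. The controls were nearly equal, at 5.06, 5.01 and 5.03 in replicates 3, 4 and 2, and the Hsp47-deleted replicates 1, 2 and 3 stood at 5.18, 5.30 and 6.05. The groups did not overlap, but Hsp47-deleted replicate 3 stood apart from the other two. The fold change of 0.48 (SE 0.32, 95% interval -0.26 to 1.22, adjusted p = 0.478) did not pass the test. It was 0.061 with the libraries centred and 0.48 against control replicate 2 alone.

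*Plagl1* encodes a zinc finger transcription factor, also called Zac1, that restrains the cell cycle and is known to regulate other imprinted genes. It lies at chr10:13060504-13131694 on the plus strand. *Plagl1* stood at 4.81, 5.38 and 3.39 in the controls, against 2.95, 5.26 and 7.07 in the Hsp47-deleted libraries. Both the lowest and the highest value belonged to the Hsp47-deleted group. The SD within the groups, pooled, was 1.63 on the log2 scale, larger than that of 98.2% of tested genes, whose median was 0.50. The fold change was 0.57 with an SE of 0.99 (95% interval -1.72 to 2.85, adjusted p = 0.795), and without Hsp47-deleted replicate 3 it was -0.42. With the libraries centred it was 0.15, and against control replicate 2 alone 1.70. A difference of several-fold either way therefore lies within the interval.

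*Peg3* encodes a zinc finger protein known for its part in maternal behaviour, p53-dependent cell death and TNF signaling, and lies at chr7:6703892-6730431 on the minus strand. It stood at 4.06, 4.24 and 4.82 in the controls, against 5.20, 5.35 and 4.46 in the Hsp47-deleted libraries. The groups overlapped through control replicate 2 and Hsp47-deleted replicate 3. The fold change was 0.63 (SE 0.36, 95% interval -0.21 to 1.47, adjusted p = 0.417). It was 0.22 with the libraries centred and 0.19 against control replicate 2 alone.

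*Mest*, also called Peg1, encodes a protein of the alpha/beta hydrolase fold family linked to the expansion of adipose tissue, and lies at chr6:30723547-30748465 on the plus strand. It stood at 4.39, 4.46 and 4.66 in the controls, against 4.84, 5.03 and 4.55 in the Hsp47-deleted libraries. The same pair of libraries made these groups overlap. Its pooled SD of 0.20 was among the smallest, larger than that of 6.26% of tested genes, and the fold change was 0.30 (SE 0.28, 95% interval -0.35 to 0.96, adjusted p = 0.614). With the libraries centred the sign turned, to -0.11, and against control replicate 2 alone the difference was 0.15. *Copg2*, on the opposite strand, overlaps the end of *Mest*; it stood at 4.04 to 4.82 in the controls and 3.46 to 4.79 in the Hsp47-deleted libraries.

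*Ndn* encodes necdin, a protein of the MAGE family that binds E2F1 and p53 and restrains proliferation, and lies at chr7:62346569-62350262 on the plus strand. It stood at 4.34, 4.03 and 5.38 in the controls, against 5.08, 4.92 and 3.91 in the Hsp47-deleted libraries. The highest value was a control and the lowest an Hsp47-deleted library. The fold change was 0.055 (SE 0.47, 95% interval -1.03 to 1.14, adjusted p = 0.964), and it was -0.36 with the libraries centred and -0.74 against control replicate 2 alone.

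*Zim1*, a maternally expressed zinc finger gene beside *Peg3* (chr7:6671269-6696450), stood between 0.094 and 0.27 in the controls and between 0.19 and 0.33 in the Hsp47-deleted libraries. *Dlk1*, which encodes a transmembrane protein with EGF-like repeats that holds back adipocyte differentiation (chr12:109452823-109463336), stood between 0.068 and 0.12 in the controls and between 0.041 and 0.13 in the Hsp47-deleted libraries. Both were under the linear mean of 1 and were not tested, and their groups overlapped. *Dlk1* is widely used as a marker of preadipocytes and other mesenchymal progenitors.

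The members did not move as 1 block across the libraries. Over the 6 libraries *Peg3* and *Mest* had a Pearson correlation of 0.98, whereas *Plagl1* and *Ndn* had one of -0.83 and *Grb10* and *Peg3* one of 0.020. These are the extremes and the value nearest 0 among 15 pairs, as descriptions over 6 points that share sequencing run and group. *Peg3*, *Mest* and *Ndn* had in common that control replicate 2 was the highest control and Hsp47-deleted replicate 3 the lowest of its group. *Plagl1* and *Grb10* had the reverse in the Hsp47-deleted group, where replicate 3 was the highest. By sequencing run, control replicate 2 exceeded the mean of the other controls by 1.19 for *Ndn*, 0.67 for *Peg3*, 0.41 for *Gnas* and 0.23 for *Mest*, differed from it by -0.0040 for *Grb10*, and lay below it for *Plagl1* (-1.71).

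The genes most like each member were taken from all tested genes by Pearson correlation over the 6 libraries. *Cdkn1a*, which encodes the cell cycle inhibitor p21, was most like *Gnas* (0.999), and 371 genes exceeded 0.95 with it. *Zxda* was most like *Grb10* (0.998), with 123 genes over 0.95, although it was listed at 0 in all 3 controls. *Plagl1* was most like *Cxcl2*, a neutrophil chemokine (0.988), with 101 genes over 0.95. *Cxcl2* stood at 7.06, 7.53 and 4.97 in the controls, against 5.06, 7.03 and 9.25 in the Hsp47-deleted libraries. *Pagr1a* was most like *Peg3* (0.998; 493 genes over 0.95), *Kdm4c* most like *Mest* (0.998; 206 genes) and *Zkscan8* most like *Ndn* (0.997; 100 genes). With 6 libraries many genes reach such values, so each is only the nearest of a large group.

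Promoter windows were available for 9 of the 10 members, in 16 windows, and *H19* had no entry. They were searched on both strands for TGCCGC, the methylated sequence bound by ZFP57, a protein that protects imprints in the early embryo, and for TGACGTCA, the cyclic AMP response element. TGCCGC was found in 6 of the 16 windows, from 5 members (*Mest*, *Zim1*, *Plagl1*, *Grb10* and *Meg3*), and 11.6% of all 32851 windows hold it. Windows of 1 gene can overlap, as those of *Mest* at chr6:30737800-30738099 and chr6:30737803-30738102 do. TGACGTCA was found in 2 of the 16 windows, from *Peg3* and *Meg3*, and 1.79% of all windows hold it. Both motifs hold a CpG, and the shares over all windows were not matched for CpG content. The windows of *Peg3* and *Mest*, the pair whose levels were most alike, and of *Plagl1*, the member that varied most, are printed with these letters, or their reverse complement, in capitals. They are *Peg3* at chr7:6730370-6730669 on the minus strand, *Mest* at chr6:30737800-30738099 on the plus strand and *Plagl1* at chr10:13090582-13090881 on the plus strand.

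Peg3: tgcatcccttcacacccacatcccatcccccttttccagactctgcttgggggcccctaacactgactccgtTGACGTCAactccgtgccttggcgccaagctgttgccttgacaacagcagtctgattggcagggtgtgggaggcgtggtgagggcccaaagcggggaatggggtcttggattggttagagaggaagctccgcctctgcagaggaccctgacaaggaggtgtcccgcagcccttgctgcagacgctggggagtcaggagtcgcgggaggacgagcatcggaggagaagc
Mest: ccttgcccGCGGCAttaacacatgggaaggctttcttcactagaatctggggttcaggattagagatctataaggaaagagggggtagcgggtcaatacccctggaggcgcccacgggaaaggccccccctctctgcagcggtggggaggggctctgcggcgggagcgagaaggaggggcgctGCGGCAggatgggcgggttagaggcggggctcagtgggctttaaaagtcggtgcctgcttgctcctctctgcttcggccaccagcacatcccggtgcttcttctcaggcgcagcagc
Plagl1: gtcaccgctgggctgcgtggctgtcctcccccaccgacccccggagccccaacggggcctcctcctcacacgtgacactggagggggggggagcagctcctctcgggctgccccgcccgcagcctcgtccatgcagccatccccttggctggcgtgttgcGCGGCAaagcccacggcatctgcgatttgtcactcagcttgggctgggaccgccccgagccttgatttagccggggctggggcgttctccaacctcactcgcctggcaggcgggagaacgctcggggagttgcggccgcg

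The *Peg3* and *Mest* windows share neither motif: *Peg3* holds TGACGTCA once, and *Mest* holds TGCCGC 2 times, both on the reverse strand. *Plagl1* holds TGCCGC once, also in reverse. A match of letters is a description of the window, and the table holds no measure of binding or methylation.

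Imprinted genes outside the set, with neighbours in the imprinted clusters of the members, gave a second frame for the members. Of 64 genes so listed, 37 were such neighbours, and whether each of these is itself imprinted was not tested. Of the 64, 56 had a row and 34 were tested. None was called at an adjusted p under 0.05 by limma, the rule that called 0.245% of all tested genes. An unadjusted p under 0.05 was found for 2 (*Igf2r* and *Zrsr1*), both higher with the deletion label. That is 5.88%, against 14.5% of all tested genes in that direction. Of the 34, 28 (82.4%) had a fold change above 0, against 74.5% of all tested genes. Their median was 0.38, which is 0.030 above the median of all tested genes. In the centred fit 16 of the 34 were above 0, where 45.7% of all tested genes were.

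*Igf2r*, the maternally expressed receptor that carries IGF2 to the lysosome for degradation, stood at 5.59, 5.56 and 6.66 in the controls, against 8.68, 8.28 and 7.43 in the Hsp47-deleted libraries. The groups did not overlap, and the fold change was 2.19 (SE 0.45, adjusted p = 0.148), 1.78 with the libraries centred and 1.46 against control replicate 2 alone. *Airn*, the antisense transcript that overlaps *Igf2r* and silences the paternal copy, stood at 6.38, 7.01 and 5.99 in the controls, against 6.98, 7.10 and 6.76 in the Hsp47-deleted libraries, which overlapped. How many reads the overlapping pair could share was not tested. *Zrsr1*, a splicing factor gene inside an intron of *Commd1* on the other strand, had a fold change of 1.56 (SE 0.54, adjusted p = 0.291), but only 0.27 against control replicate 2 alone.

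**Figure D4:**
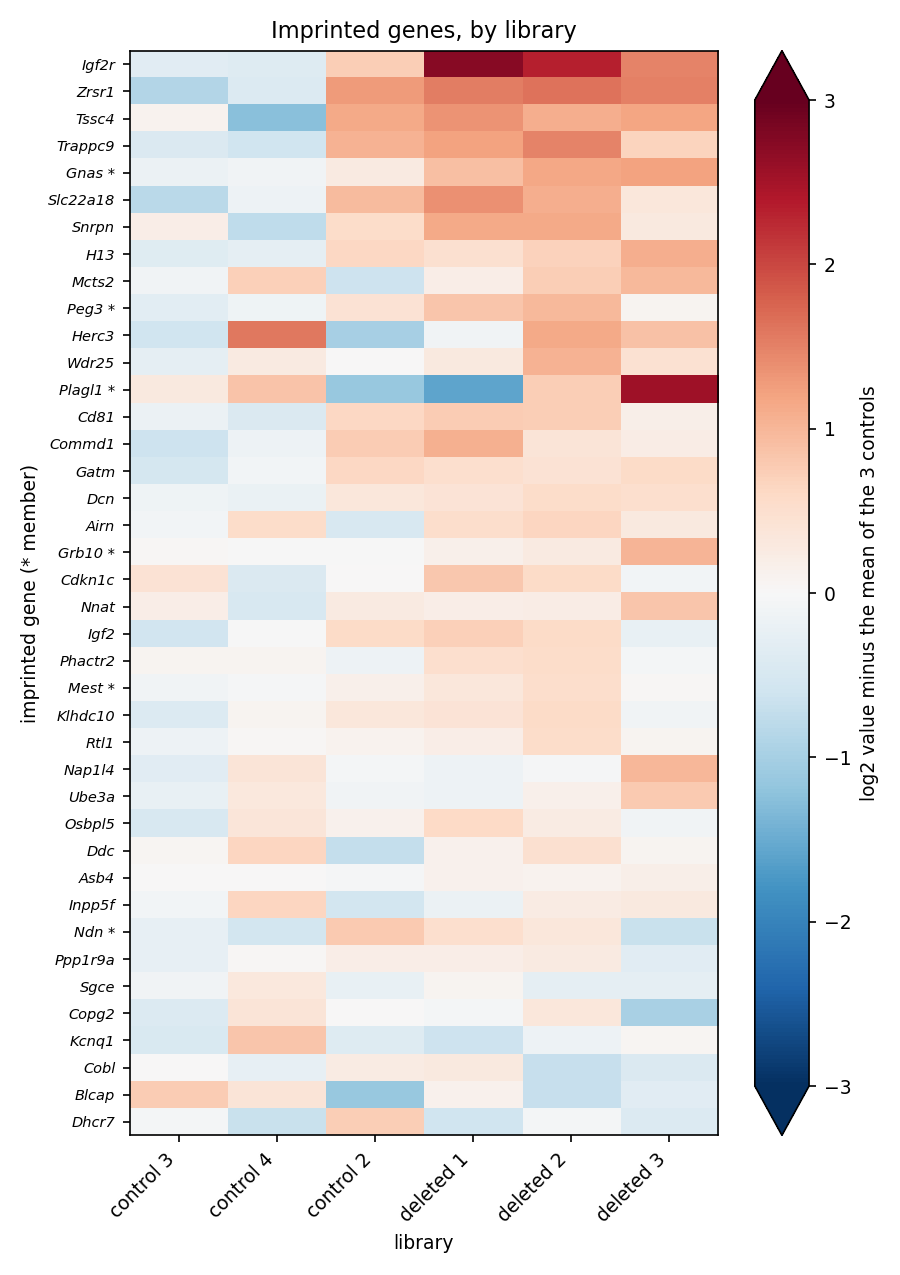
The heat map has a row for each of the 40 tested imprinted genes and cluster neighbours, with members starred. Columns are libraries, and the scale is the log2 value minus the mean of the 3 controls, from blue (lower) to red (higher). Drawn values run from -1.58 to 2.74, with *Igf2r* at the top, *Gnas* the first of the members, and control replicate 2 often nearer to the Hsp47-deleted libraries than to the other controls.

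The network of imprinted growth genes that *Plagl1* is known for has 9 further genes on the list used here, all with a row and 7 of them tested. *Igf2r* alone had an unadjusted p under 0.05, which 15.2% of all tested genes had. Of the 7, 6 were above 0, against 74.5% of all tested genes, and the median was 0.43. *Igf2*, the paternally expressed fetal growth factor, stood at 3.31, 3.88 and 4.47 in the controls, against 4.60, 4.46 and 3.66 in the Hsp47-deleted libraries, and these groups overlapped. *Dcn*, which encodes the collagen-binding proteoglycan decorin, stood between 12.31 and 12.85 in the controls and between 12.92 and 13.08 in the Hsp47-deleted libraries. Those did not overlap, with a fold change of 0.49 (SE 0.36, adjusted p = 0.519). *Gatm*, an enzyme of creatine synthesis, had a fold change of 0.50 (SE 0.39, adjusted p = 0.539).

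Of 37 neighbours in the imprinted clusters of the members, 30 had a row and 17 were tested. None had an unadjusted p under 0.05, which 15.2% of all tested genes had. Of the 17, 14 were above 0, against 74.5% of all tested genes. In the centred fit 6 of them were, against 45.7%. The median was 0.29, or -0.065 relative to that of all genes. Those with the smallest p were *Tssc4* (1.20, SE 0.57, adjusted p = 0.353), *Snrpn* (0.86, SE 0.45, adjusted p = 0.389), which encodes a small nuclear ribonucleoprotein, and *Slc22a18* (0.93, SE 0.52, adjusted p = 0.407). Against control replicate 2 alone the differences of these genes were 0.053, 0.30 and -0.020. *Usp29*, which begins beside *Peg3* on the other strand, was listed at 0 in all 6 libraries, as was *Ins2* beside *Igf2*. The network genes recur in these lists, *Igf2* and *Cdkn1c* among the neighbours and the rest among the imprinted genes elsewhere. Of 27 imprinted genes elsewhere, 26 had a row and 17 were tested, of which 14 were above 0 with a median of 0.49. That is 82.4% above 0, against 74.5% of all tested genes, and in the centred fit 10 of the 17 were. *Trappc9* followed *Igf2r* and *Zrsr1* there, at 1.12 (SE 0.50, adjusted p = 0.334), but only 0.088 against control replicate 2 alone.

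Of 21 genes that keep or erase imprints, all had a row and 20 were tested. Above 0 were 15 of them (75.0%), against 74.5% of all tested genes. The median was 0.26, and none had an unadjusted p under 0.05, which 15.2% of all tested genes had. In the centred fit 5 of the 20 were above 0, against 45.7% of all tested genes. The median there was -0.15, and 1 gene, lower with the deletion label, had an unadjusted p under 0.05 (8.21% of all tested genes did). *Tet3*, which oxidises methylated cytosine, had a fold change of 0.90 (SE 0.39, adjusted p = 0.330). Its levels of 3.02 to 3.73 in the controls did not overlap those of 3.82 to 4.97 in the Hsp47-deleted libraries. *Setdb1*, a histone methyltransferase recruited by the KRAB zinc finger complex, had 0.62 (SE 0.37, adjusted p = 0.430), and *Zfp445*, which protects imprints with ZFP57, had 0.53 (SE 0.34, adjusted p = 0.454).

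The insulin and IGF receptor genes, whose products GRB10 binds, were listed with signaling genes below them (*Irs1*, *Irs2*, *Akt1*, *Akt2*, *Mtor* and *Rptor*). This list had the highest median of the 8 lists. All 8 genes were tested, and 7 were above 0 (74.5% of all tested genes were). Of the 8, 4 had an unadjusted p under 0.05 (14.5% of all tested genes did, in that direction). Hsp47-deleted levels lay entirely above the controls in 5 (18.3%). None of the 8 was called at an adjusted p under 0.05 by limma. The median was 0.85, against 0.35 for all tested genes. With the libraries centred it was 0.43, against -0.060 for all tested genes, and 2 of the 8 had an unadjusted limma p under 0.05 (8.21% of all tested genes did). Against control replicate 2 alone the median was 0.45, where that of all tested genes was 0.29. *Irs2*, an insulin receptor substrate, stood at 3.09, 3.03 and 4.17 in the controls, against 5.01, 5.74 and 5.20 in the Hsp47-deleted libraries. Its groups did not overlap, with a fold change of 1.89 (SE 0.40, adjusted p = 0.162). *Irs1* stood between 2.46 and 3.23 in the controls and between 3.77 and 4.19 in the Hsp47-deleted libraries, at a fold change of 1.10 (SE 0.33, adjusted p = 0.281). *Insr*, the insulin receptor, had 1.12 (SE 0.37, adjusted p = 0.283). In each of the 3 the highest control was replicate 2, of the second run.

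**Figure D5:**
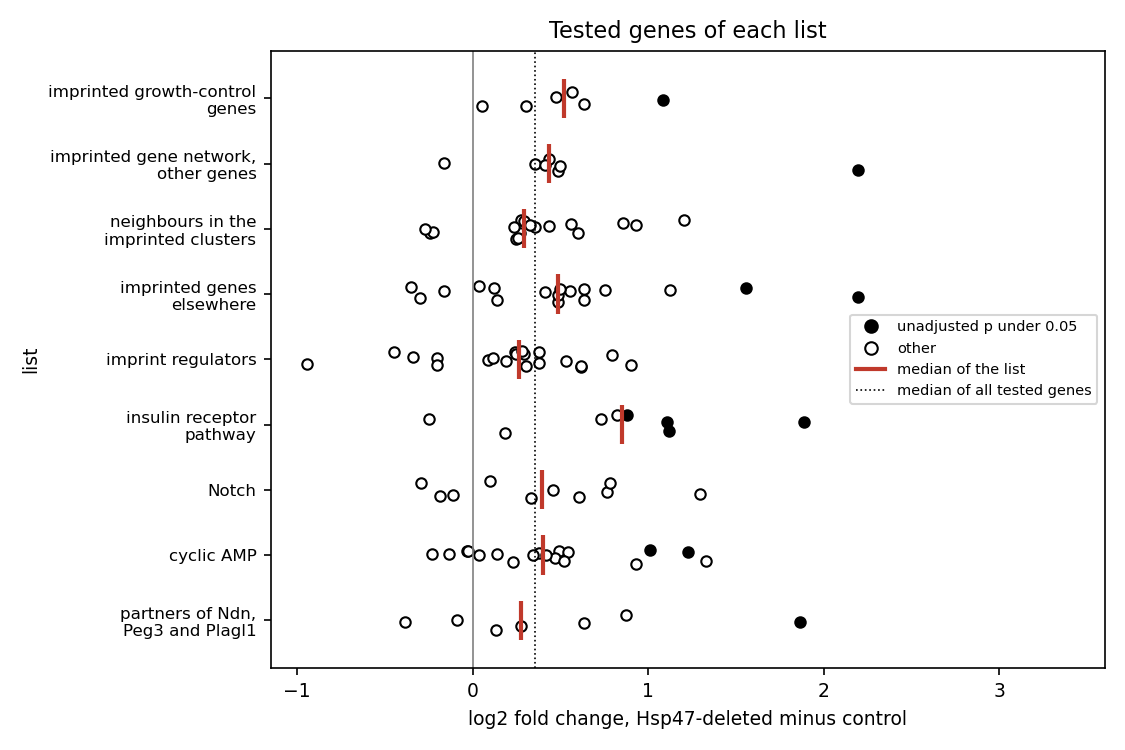
The plot shows the log2 fold change of every tested gene on the horizontal axis, 1 row per list, with filled points for an unadjusted p under 0.05, a red bar at the list median and a dotted line at the median of all tested genes (0.35). The insulin receptor pathway has the highest median, at 0.85, and the imprint regulators the lowest, at 0.26.

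Of 20 genes for the cyclic AMP pathway that Gs alpha drives, 18 were tested. Above 0 were 14 of them (77.8%), against 74.5% of all tested genes. An unadjusted p under 0.05 was found for 2 (11.1%), against 15.2% of all tested genes, and the median was 0.40. *Adcy6*, an adenylyl cyclase of heart cells, stood at 1.96, 1.81 and 3.00 in the controls, against 3.74, 3.54 and 3.17 in the Hsp47-deleted libraries. The groups did not overlap, and the fold change was 1.23 (SE 0.40, adjusted p = 0.283). *Gnai2*, an inhibitory G protein alpha subunit, had 0.93 (SE 0.50, adjusted p = 0.392) with overlapping groups. *Pde4b*, a phosphodiesterase that breaks down cyclic AMP, was the lowest of the list at -0.23 (SE 0.69), chosen after its value was seen. Its controls divided by sequencing run, at 8.80 and 8.88 in the first and 6.40 in the second, and against control replicate 2 alone the difference was 1.39.

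The Notch list, included because DLK1 resembles the Notch ligands, had 11 genes with 10 tested. Of these, 7 were above 0 (70.0%, against 74.5% of all tested genes). None had an unadjusted p under 0.05 (15.2% of all tested genes did). The median of the list was 0.39, and -0.14 against control replicate 2 alone. *Notch1* had a fold change of 0.77 (SE 0.40), *Dll1* 0.78 (SE 0.48) and *Hes1*, a target of Notch, 1.30 (SE 0.82). *Hes1* stood at 5.61 in control replicate 2 against 3.02 and 2.76 in control replicates 3 and 4, so that its controls divided by sequencing run. The adjusted p-values of the 3 were 0.388, 0.438 and 0.451. Against control replicate 2 alone the differences of *Notch1*, *Dll1* and *Hes1* were 0.086, -0.16 and -0.52.

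Of 7 genes that act with necdin, PEG3 or PLAGL1, all were tested and 5 were above 0 (71.4%, against 74.5% of all tested genes). An unadjusted p under 0.05 was found for 1 (14.3%, against 15.2% of all tested genes), and the median was 0.28. *Cdkn1a* stood at 8.67, 8.71 and 9.43 in the controls, against 10.49, 10.98 and 10.93 in the Hsp47-deleted libraries. The groups did not overlap, and the fold change was 1.87 (SE 0.35, adjusted p = 0.115), 1.45 with the libraries centred and 1.37 against control replicate 2 alone. *Bax*, an effector of cell death downstream of p53, had 0.87 (SE 0.56, adjusted p = 0.455), and *Pparg*, the adipocyte transcription factor, had 0.63 (SE 0.54, adjusted p = 0.575). Against control replicate 2 alone *Bax* differed by 0.13 and *Pparg* by -0.36.

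Markers of other cell types were also detected in the sorted cells. The summed linear level of endothelial markers was 85.5 to 600 in the controls and 262 to 566 in the Hsp47-deleted libraries, and that of erythroid markers was 20.4 to 857 and 218 to 475. Leukocyte markers summed to 31.3 to 87.2 and to 94.9 to 123, which did not overlap, with *Ptprc* listed at 0 in every library. Most of that sum came from *Cd68* (19.2 to 63.6 and 51.9 to 62.3) and *Lyz2* (1.29 to 56.7 and 27.3 to 42.6), which each overlapped. *Csf1r*, *Cd3e* and *Cd79a* overlapped too, whereas *Cd14* and *Adgre1*, at low levels, did not. Cardiomyocyte markers summed to 41.8 to 230 and 144 to 221, mural markers to 161 to 285 and 110 to 166, Schwann cell markers to 4.33 to 7.19 and 6.86 to 7.24, and mesothelial markers to 1.29 to 6.30 and 3.42 to 11.1. All of these but the leukocyte sums overlapped. The part of these cells in the differences of *Gnas* and *Grb10*, or in the spread of *Plagl1*, was not tested.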

How the data were processed

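RNA-seq libraries of EGFP+ cells from 6 samples (3 control, 3 labelled Hsp47-deleted) were analysed. The authors deposited log2(value + 1) per gene and library for 28987 genes, with an unnamed linear unit, beside group means and their own comparison, which were not used. The labels' processing notes name kallisto and mm10, and the methods name AltAnalyze. The values are not counts and the depth per library is unknown. With the log2 undone, the libraries summed to 690499 to 855404.

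Differences were fitted by limma 3.58.1 (R 4.3.3, mean-variance trend, no covariate) for the 15109 genes with a linear mean of at least 1, with Benjamini-Hochberg adjustment over all of them. Tested on simulated data with 200 changed genes, the fit called 83 of them, including 0 of 67 changed by 1 on the log2 scale and 56 of 66 changed by 4, and called 6 unchanged genes. Overlapping models came from GENCODE M21 (GRCm38) and minimap2 2.31-r1302, and promoter windows from RefSeq. Named genes were the members, *Serpinh1* as the target, the 3 genes of each list with the smallest p and the gene most like each member. Also given, outside this rule, were *Gm20721*, *Airn* and *Copg2* as overlapping genes, *Igf2*, *Ins2* and *Usp29* as cluster neighbours, *Pde4b* and the cell type markers. A gene of the cyclic AMP list that this rule names is not reported here. Members and lists were chosen with earlier results of these data known. Alternatives were sequencing run as a covariate or the second run alone, the replicate block, other filters and pseudocounts (0.1 and 5), quantile normalization, centring, no trend, robust estimation and leaving out each library. Removal of GC and length trends and the *Gnas* sum were added after the data were seen.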

Additional observations from a re-analysis of the deposited data

How the results depend on the processing

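The direction of *Gnas* held under 17 alternatives with a test, at 0.53 to 1.22 with adjusted p-values of 0.0174 to 0.783. The lowest came without control replicate 2, when group and sequencing run coincide, and was the only call of a member under any alternative. Over the 6 tested members, 91 of 103 values kept their direction and 12 reversed. *Mest* became -0.051 after quantile normalization and -0.11 after centring. *Ndn* became -0.31 and -0.36 under those scalings, -0.74 with sequencing run as a covariate, and -0.22 to 0.45 when each library was left out. *Plagl1* was 1.70 with that covariate, and ran from -0.42 (without Hsp47-deleted replicate 3) to 1.64 when each library was left out, with -0.0024 without control replicate 2. Among the 3 genes of each list with the smallest p, 6 reversed with sequencing run as a covariate. They were *Gatm* (-0.13), *Slc22a18* (-0.020), *Dll1* (-0.16), *Hes1* (-0.52), *Gnai2* (-0.10) and *Pparg* (-0.36). Other genes given above changed sign against control replicate 2 alone, among them *Serpinh1* (-0.87), *Igf2* (-0.23) and *Pde4b* (1.39).

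Over all tested genes, 37 were called, but 16 with a pseudocount of 0.1, 17 after quantile normalization, 18 after centring and 50 with the run as a covariate. Leaving out each library gave 8 (without Hsp47-deleted replicate 3) to 2768 (without control replicate 2). Members with an unadjusted p under 0.05 numbered 1, 0 after quantile normalization and after centring, and 1 to 2 when a library was left out (*Gnas* and *Peg3* if control replicate 2 or Hsp47-deleted replicate 3 was dropped). Listed genes outside the members with one numbered 9 of 97 tested, or 9.28%, against 15.2% of all tested genes. When a library was left out they numbered 3 (without Hsp47-deleted replicate 2) to 31 (without control replicate 2), with 4 without control replicate 3.

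Replicate numbers 2 and 3 occur in both groups and share only a number (r of 0.16 and 0.23 between same-numbered libraries, against 0.38 for Hsp47-deleted replicate 1 and control replicate 2). With the replicate block, which leaves 1 residual degree of freedom, 0 genes were called by limma, and 1 member and 8 listed genes had an unadjusted p under 0.05. That member was *Plagl1* (2.07, unadjusted limma p 0.00186, adjusted p 0.370) and no longer *Gnas* (1.13, unadjusted limma p 0.0613, adjusted p 0.482), and *Ndn* was -0.44. The unnamed unit leaves the depth behind *Zim1* and *Dlk1* unknown, so their low values do not show absence. The causes of these changes were not tested.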
